A study of Caenorhabditis elegans with 6 samples.

Results

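The genes described here encode the small secreted antimicrobial peptides associated with the epidermis of the nematode Caenorhabditis elegans. They were taken from the deposited gene table by name: nlp-24 to nlp-34, and every gene numbered in the cnc (caenacin), abf (antibacterial factor), fip (fungus-induced protein) and fipr (fip-related) families. The rule found 64 genes among the 22407 with counts, of which 11 were nlp, 11 cnc, 6 abf, 7 fip and 29 fipr genes. The data were RNA-seq gene counts from 6 libraries, each from a pool of whole worms of strain AM140, which carries rmIs132, a transgene that makes a run of glutamines fused to yellow fluorescent protein from the unc-54 promoter, active in body wall muscle. All 6 libraries share this transgene. Worms ate HT115 bacteria with an empty vector (EV, 3 libraries) or with an RNAi construct directed at the untranslated 3' end of the gtr-1 transcript (called gtr-1 RNAi below, 3 libraries), in the parental generation and again in generation 2, at 20 °C, and generation 2 was collected on day 6 of adulthood. Per the series title, the study concerns a receptor of neurons, coupled to G proteins, and its effect through neuropeptides on how other tissues keep their proteins folded. The labels do not tell separate cultures from repeat preparations, so a p-value here refers to the variation among these 6 libraries and that variation could be technical.

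The worm's epidermis answers infection by fungi such as Drechmeria coniospora, wounding and, for some genes, osmotic stress by making peptides that are released towards the cuticle. For nlp-29 the route runs from the receptor DCAR-1 through the G protein subunit GPA-12 and protein kinase C to a p38 MAP kinase cascade and the STAT-like protein STA-2, whereas cnc-2 depends on the TGF-beta ligand DBL-1, which neurons make. Damage to the collagens that form the furrows of the cuticle also turns on nlp-29, and abf genes encode defensin-like peptides made in the pharynx and other tissues. The sequenced material was the whole animal, so the tissue that made each transcript was not measured, and fewer cells of a type and less RNA per cell cannot be told apart.

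Each library held between 33254426 and 41902475 counts in total. The targeted gene gave no check of the labels, because gtr-1 had 16, 25 and 20 counts in EV replicates 1, 2 and 3 and 20, 24 and 19 counts in the replicates that carry the label gtr-1 RNAi. The log2 fold change of gtr-1 was -0.010 ± 0.28 SE (edgeR adjusted p = 0.986), so no lowering of its transcript was seen at these low counts. The first principal component held 72.7% of the variance. On it gtr-1 RNAi replicate 3 lay between the EV libraries and the other gtr-1 RNAi libraries. The pair of libraries with the smallest distance was EV replicate 1 and gtr-1 RNAi replicate 3, with a root mean square difference of 0.272 in log2 CPM, below that of any pair within a group. Comparisons are therefore also given without gtr-1 RNAi replicate 3, for peptide genes by name and for the gene lists by count. Levels are in CPM, the count scaled to library size, here with TMM factors.

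Most of the 64 genes were weakly represented in day-6 adults. Counts were recorded in at least 1 library for 60 of them, and the other 4, fipr-12, fipr-14, fipr-20 and fipr-27, had 0 counts in all 6 libraries. A further 15 had 1 to 9 counts in total over the 6 libraries, and 10 had more than that but did not pass the edgeR filter on low counts, the highest being fipr-5 with 52 counts. The filter kept 35 genes: 10 of 11 nlp, 8 of 11 cnc, 4 of 6 abf, 3 of 7 fip and 10 of 29 fipr. A gene that passes such a filter may do so through 1 group alone, so counts over the 35 do not speak for all 64. The untested nlp-32 had 3, 16 and 6 counts under EV and 1, 12 and 2 counts under gtr-1 RNAi, and cnc-1 had 5, 10 and 1 against 2, 1 and 2. Both are too low for a comparison at this depth.

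The genes lie close together in the genome, which bears on how far they are separate measurements. Chromosome V holds 36 of the 64, and chromosome II none. With a gap of under 20000 bases as the limit, 46 genes fell into 15 groups of neighbours in WBcel235. The largest nlp group, nlp-34, nlp-31, nlp-30, nlp-29, nlp-28 and nlp-27, spans 10946 bases at chrV:3978825-3989770, and all 6 of its genes were tested. A cnc group of cnc-11, cnc-1, cnc-5, cnc-4, cnc-3 and cnc-2 lies at chrV:1442342-1450183. A fipr group of 6 genes, fipr-4 to fipr-9, lies at chrV:10220981-10239961, and with 127 counts in all libraries together none of its genes was tested. The neighbours are similar paralogs, so reads may have been shared between them in the authors' counting. The genes are short, with a median exon length of 341.5 bases over the 64 and 388 over the tested 35, against 1381 over all 14683 tested genes. The strand setting of the counting is not given in the sources used here, and 4 of the tested genes, among them nlp-24, nlp-26 and fip-2, overlap an exon of a gene on the opposite strand, so their values are less certain.

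Levels were compared between genes per kilobase of exon, as the mean over the 6 libraries. The gene nlp-27 stood first at 123 CPM per kb, followed by nlp-28 at 58.7, nlp-29 at 57.0 and cnc-2 at 51.3 CPM per kb. Then came nlp-33 at 46.5, abf-2 and cnc-4 both at 44.9, and fipr-21 at 37.2 CPM per kb. The lowest tested gene was nlp-25, at 0.520 CPM per kb. Among these 8 most abundant genes, neighbours in the order below nlp-27 differed by less than their own spread between libraries. The summed level of the 64 genes was 230, 329 and 190 CPM in EV replicates 1, 2 and 3, and 278, 361 and 274 CPM in gtr-1 RNAi replicates 1, 2 and 3, so the groups overlapped.

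**Figure D1:**
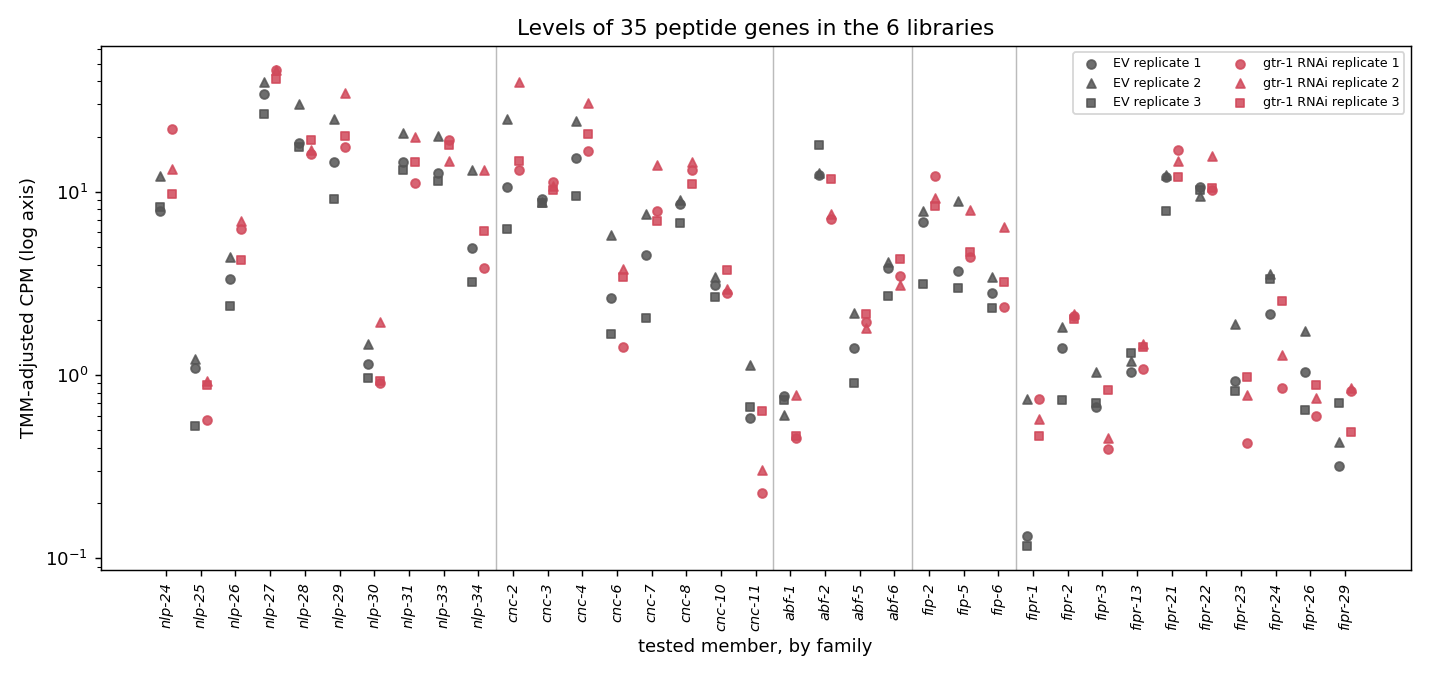
TMM-adjusted CPM on a log axis of the 35 tested peptide genes, ordered by family, with 1 point per library (grey for EV, red for gtr-1 RNAi, marker shape for the replicate number). The point clouds of EV and gtr-1 RNAi overlap for 29 of the 35 genes.

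No peptide gene passed the main test of gtr-1 RNAi against EV. The edgeR quasi-likelihood test with Benjamini-Hochberg adjustment over all tested genes called 0 of 35 genes, as it called 0 of all 14683 genes (0.0%), and the smallest adjusted p among the peptide genes was 0.112. At an unadjusted p under 0.05 edgeR had 4 genes higher under gtr-1 RNAi, cnc-8, cnc-3, nlp-26 and nlp-27, and 1 lower, abf-2, that is 4 and 1 of 35 against a background of 12.9% higher and 15.3% lower over all genes. DESeq2, run as an alternative, gave 30 of the 35 genes an adjusted p and called 3 of them higher, cnc-8, nlp-27 and nlp-26, and 1 lower, abf-2. The background for that call was 6.66% higher and 7.58% lower. The counts of 3 and 1 of 30 genes are small, and their difference from that background was not tested. limma-voom called 0 of 35 genes, with a background of 0.0% in each direction, and with library quality weights it called 8 higher and 7 lower, with a background of 16.1% and 21.6%. Without gtr-1 RNAi replicate 3, edgeR called 2 genes higher, cnc-8 and nlp-26, and 3 lower, abf-2, fipr-24 and cnc-11, with a background of 8.77% and 15%. The CPM of the groups did not overlap for 5 genes that were higher under gtr-1 RNAi, nlp-27, cnc-3, cnc-8, fip-2 and fipr-2, and for 1 that was lower, abf-2, against a background of 16.6% higher and 19.6% lower.

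As a set, the tested genes had a median log2 fold change of 0.23, with 24 of 35 above 0, while the median over all tested genes was -0.0025 and 49.5% of genes were above 0. By family the median was 0.17 for nlp (7 of 10 above 0), 0.38 for cnc (6 of 8), -0.14 for abf (2 of 4), 0.48 for fip (3 of 3) and 0.22 for fipr (6 of 10). These medians depended on the libraries. Leaving out each library in turn moved the nlp median between -0.044 and 0.54, and weighting libraries by their quality in limma-voom gave -0.14 for nlp, -0.027 for cnc and -0.17 for fip. Genes measured in the same 6 libraries, some of them close paralogs, are not replicates, so these counts describe the lists and carry no test.

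**Figure D2:**
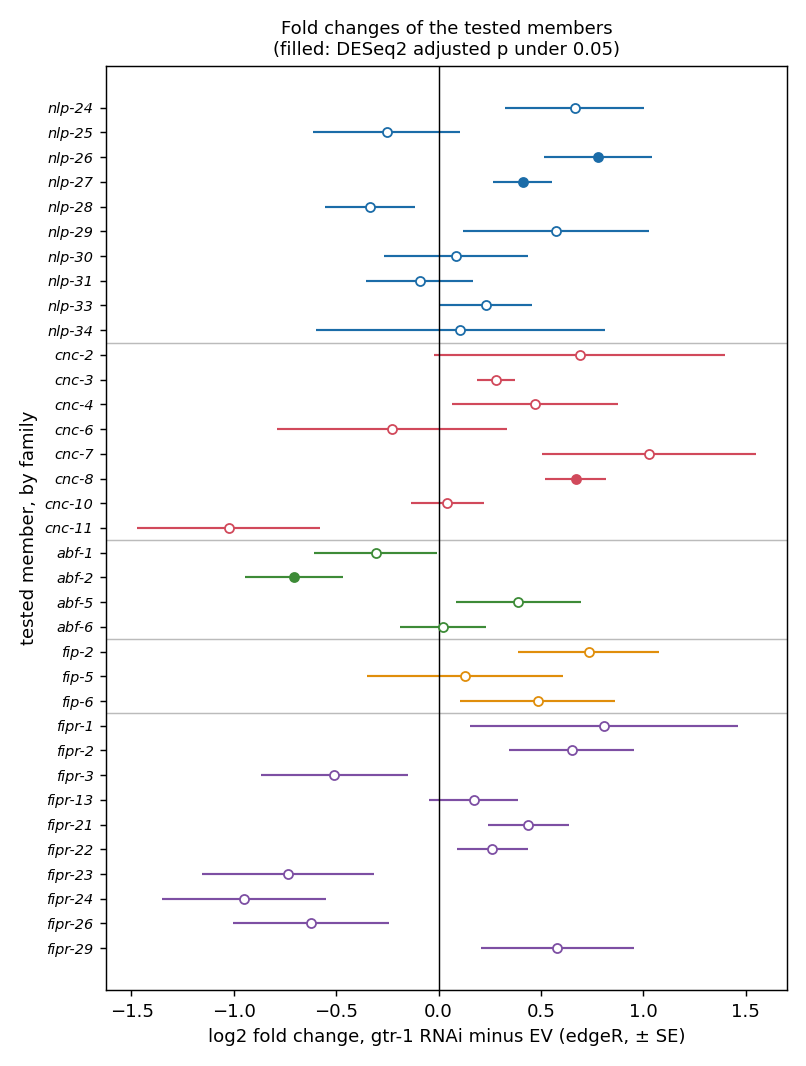
Log2 fold change of gtr-1 RNAi minus EV for the 35 tested genes, ordered by family (edgeR, bars are ± SE, 3 libraries per group). Filled points mark the 4 genes with a DESeq2 adjusted p under 0.05: cnc-8, nlp-27 and nlp-26 above 0 and abf-2 below 0.

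Among the nlp genes, nlp-29 is the standard reporter of the epidermal response to fungi and wounds. Its level was 14.5, 24.9 and 9.16 CPM in EV replicates 1, 2 and 3, and 17.5, 34.6 and 20.2 CPM in gtr-1 RNAi replicates 1, 2 and 3. Replicate 2 was highest in both groups, and the groups overlapped. The log2 fold change was 0.57 ± 0.46 SE (edgeR adjusted p = 0.447), from 16.2 ± 8.0 to 24.1 ± 9.20 CPM (SD, n = 3 each). The most abundant of them, nlp-27, a neighbour of nlp-29 in the same group, was measured at 34.3, 39.6 and 26.5 CPM under EV and at 46.3, 46.1 and 41.2 CPM under gtr-1 RNAi. All 3 gtr-1 RNAi libraries lay above all EV libraries. The edgeR log2 fold change was 0.41 ± 0.14 SE with an adjusted p of 0.137, and the DESeq2 adjusted p was 0.0180. DESeq2 kept that call in 2 of the 6 fits that each left out 1 library.

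The other genes of the same stretch of chromosome V differed in sign, with nlp-29, nlp-30 and nlp-34 above 0 and nlp-28 and nlp-31 below. For nlp-28, which like nlp-27 and nlp-29 encodes a glycine- and tyrosine-rich peptide, the CPM were 18.4, 30.0 and 17.5 under EV and 16.1, 16.9 and 19.2 under gtr-1 RNAi. EV replicate 2 stood alone at the top and the other 5 libraries were similar. Its log2 fold change was -0.34 ± 0.22 SE (edgeR adjusted p = 0.349). For nlp-31, whose peptide has antifungal activity, it was -0.093 ± 0.26 SE (edgeR adjusted p = 0.842), and for nlp-34 it was 0.11 ± 0.71 SE (edgeR adjusted p = 0.939). The median log2 fold change of the 6 neighbours was 0.096.

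Outside that group, nlp-26 lies with nlp-25 near the right end of chromosome V. Its level was 3.35, 4.38 and 2.39 CPM under EV and 6.27, 6.90 and 4.24 CPM under gtr-1 RNAi. The groups overlapped by 1 pair, EV replicate 2 being above gtr-1 RNAi replicate 3. For this gene the log2 fold change was 0.78 ± 0.26 SE (edgeR adjusted p = 0.128, DESeq2 adjusted p = 0.0328), and DESeq2 kept the call in 2 of the 6 fits without 1 library. The gene nlp-24 was at 7.84, 12.2 and 8.29 CPM under EV and 21.9, 13.3 and 9.72 CPM under gtr-1 RNAi, with a log2 fold change of 0.66 ± 0.34 SE (edgeR adjusted p = 0.249, DESeq2 adjusted p = 0.0634). Only gtr-1 RNAi replicate 1 stood well above the other 5 libraries. Both genes overlap an exon on the opposite strand.

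Among the caenacins, cnc-8 had the smallest p of all 35 genes. It lies on chromosome X next to fip-5 and fipr-21, at chrX:10306595-10306951. Its level was 8.55, 8.96 and 6.74 CPM under EV and 13.1, 14.4 and 11.02 CPM under gtr-1 RNAi. Every gtr-1 RNAi library was above every EV library, and the group means were 8.09 ± 1.18 and 12.9 ± 1.73 CPM (SD, n = 3 each), a ratio of 1.59. The log2 fold change was 0.67 ± 0.15 SE (edgeR adjusted p = 0.112, DESeq2 adjusted p = 0.0018). DESeq2 kept the call in 5 of the 6 fits without 1 library and lost it without gtr-1 RNAi replicate 1, and edgeR called the gene without gtr-1 RNAi replicate 3 (adjusted p = 0.0049).

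The target of the TGF-beta route, cnc-2, varied more between libraries of a group than between groups. It was at 10.5, 24.9 and 6.24 CPM under EV and at 13.1, 39.5 and 14.7 CPM under gtr-1 RNAi. Replicate 2 was the highest in both groups, and the highest library was 6.33 times the lowest. Its log2 fold change was 0.69 ± 0.71 SE (edgeR adjusted p = 0.563). The largest log2 fold change of the 35 genes was that of cnc-7, 1.03 ± 0.52 SE (edgeR adjusted p = 0.253), from 4.52, 7.52 and 2.04 CPM under EV to 7.80, 14.05 and 6.93 CPM under gtr-1 RNAi, where EV replicate 2 overlapped the other group. The neighbour of cnc-2, cnc-4, had the same order, at 15.3, 24.3 and 9.48 CPM under EV and 16.8, 30.6 and 20.8 CPM under gtr-1 RNAi, with a log2 fold change of 0.47 ± 0.41 SE (edgeR adjusted p = 0.483).

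In contrast, cnc-3, which lies between cnc-4 and cnc-2, was the steadiest of the 35 genes. Its level was 9.16, 8.74 and 8.69 CPM under EV and 11.3, 10.8 and 10.2 CPM under gtr-1 RNAi. The groups did not overlap, and the within-group SD of 0.058 in log2 CPM was below the 0.075 that counting alone gives. For this gene the log2 fold change was 0.28 ± 0.093 SE (edgeR adjusted p = 0.125, DESeq2 adjusted p = 0.107). At the other end of the same group of neighbours, cnc-11 was near the limit of what was tested, at 0.58, 1.14 and 0.67 CPM under EV and 0.23, 0.30 and 0.64 CPM under gtr-1 RNAi. Its log2 fold change was -1.02 ± 0.45 SE (edgeR adjusted p = 0.181), and edgeR called it without gtr-1 RNAi replicate 3 (adjusted p = 0.0268).

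Of the abf genes, abf-2 was the abundant one, and its difference was opposite in sign to that of nlp-27 and cnc-8. Its level was 12.4, 12.7 and 18.1 CPM under EV and 7.12, 7.55 and 11.8 CPM under gtr-1 RNAi. All gtr-1 RNAi libraries were below all EV libraries, replicate 3 being the highest in each group, and the means were 14.4 ± 3.22 and 8.81 ± 2.56 CPM (SD, n = 3 each). The log2 fold change was -0.70 ± 0.24 SE (edgeR adjusted p = 0.131, DESeq2 adjusted p = 0.0161). DESeq2 kept the call in 2 of the 6 fits without 1 library, and edgeR called it without gtr-1 RNAi replicate 3 (adjusted p = 0.0065). Pharynx markers were measured beside it because abf-2 is made in the pharynx: their summed level was 112, 129 and 91.0 CPM under EV and 102, 76.9 and 110 CPM under gtr-1 RNAi. The summed groups overlapped, edgeR, DESeq2 and limma-voom called none of the 11 pharynx markers, none had an unadjusted edgeR p under 0.05, and none was at 0 counts in all libraries. Of the 11, 8 were below 0 in log2 fold change, with a median of -0.21. Both ceh-22 and phat-1 were lower without overlap (19.6% of all genes), at -1.32 ± 0.61 SE and -1.58 ± 0.68 SE. Without gtr-1 RNAi replicate 3, where edgeR called abf-2, it also called 4 of the 11 pharynx markers lower, against 15% of all genes. The log2 fold change was then -2.55 for ceh-22, -2.99 for phat-1 and -0.82 for pha-4. It was above 0 for phat-3 (0.066) and marg-1 (0.16). The phat-1 value rests on few counts, at 0.17 and 0.050 CPM in gtr-1 RNAi replicates 1 and 2. The part of the pharynx markers in the abf-2 result was not tested. The neighbour abf-1 was at 0.703 ± 0.0846 CPM in the EV libraries against 0.565 ± 0.184 CPM in the others (SD, n = 3 each), with a log2 fold change of -0.31 ± 0.30 SE (edgeR adjusted p = 0.527). On chromosome X, abf-5 had a log2 fold change of 0.39 ± 0.31 SE and abf-6 one of 0.023 ± 0.21 SE, whose sign changed with the scaling.

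The fip and fipr genes are known from infection with the same fungus, and most of their peptides have no assigned activity. The gene fip-2 was at 6.85, 7.82 and 3.12 CPM under EV and 12.2, 9.21 and 8.33 CPM under gtr-1 RNAi. The groups did not overlap. Its log2 fold change was 0.73 ± 0.34 SE (edgeR adjusted p = 0.217, DESeq2 adjusted p = 0.0561), and the gene overlaps an exon on the opposite strand. The log2 fold changes of fip-5 and fip-6 were 0.13 ± 0.48 SE and 0.48 ± 0.38 SE, and both changed sign when certain libraries were left out.

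Among the 10 tested fipr genes, fipr-21 and fipr-22 were the abundant ones. Between fip-5 and cnc-8 on chromosome X, fipr-21 was at 11.98, 12.3 and 7.85 CPM under EV and 16.8, 14.6 and 12.1 CPM under gtr-1 RNAi, with a log2 fold change of 0.44 ± 0.20 SE (edgeR adjusted p = 0.195). The groups overlapped by 1 pair. The low-level gene fipr-2 was at 1.41, 1.82 and 0.73 CPM under EV and 2.09, 2.16 and 2.01 CPM under gtr-1 RNAi, without overlap, with a log2 fold change of 0.65 ± 0.31 SE (edgeR adjusted p = 0.205). The chromosome I neighbours fipr-22 and fipr-24 differed in sign. The log2 fold change of fipr-22 was 0.26 ± 0.17 SE (edgeR adjusted p = 0.347). For fipr-24 the CPM were 2.15, 3.55 and 3.35 under EV and 0.85, 1.28 and 2.52 under gtr-1 RNAi. Only gtr-1 RNAi replicate 3 reached into the EV range. For this gene the log2 fold change was -0.95 ± 0.40 SE (edgeR adjusted p = 0.177), and edgeR called the gene without gtr-1 RNAi replicate 3 (adjusted p = 0.0065).

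**Figure D3:**
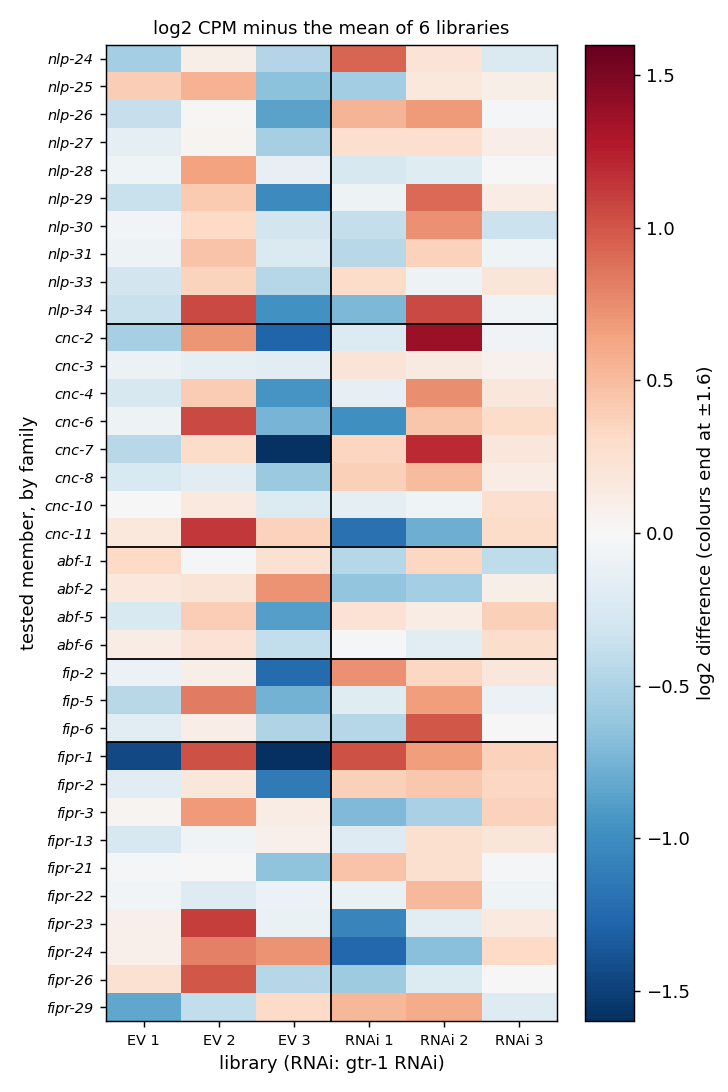
Log2 CPM of the 35 tested genes minus each gene's mean over the 6 libraries, with libraries in columns and genes in rows by family (red above the mean, blue below, colours ending at ±1.6). Column EV 2 is mostly red and EV 3 mostly blue, and RNAi 2 is red for many nlp, cnc and fip genes.

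The peptide genes differed more between libraries of the same group than genes in general. The median within-group SD of log2 CPM was 0.466 over the 35 genes against 0.145 over all tested genes, where 50.0% lie above the median, and 34 of the 35 were above it. The median SD that counting alone gives was 0.118, and 33 of the 35 exceeded their own counting SD. The gap was also present at matched level: among genes with a mean between 5 and 50 CPM, a range chosen after the values were seen, the median SD was 0.385 for the 17 peptide genes and 0.115 for all 4599 genes. Of the 17, 16 were above the upper quartile of those genes, 0.201. The ratio of the highest to the lowest of the 6 libraries was 6.88 for cnc-7, 6.33 for cnc-2, 4.10 for nlp-34 and 3.78 for nlp-29, and 1.3 for cnc-3. For 17 of the 35 genes the log2 fold change was smaller than the within-group SD, against 37.9% of all genes. Some of the marker and pathway lists showed a like spread. The median within-group SD was 0.447 for epidermis markers, with 11 of 14 above the median of all genes, 0.432 for pharynx markers, with 10 of 11, and 0.259 for body wall muscle markers, with 8 of 8. It was 0.393 for the list of furrow collagens and negative regulators and 0.656 for osmotic response genes.

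The spread had the same order in many of the genes. EV replicate 2 was the highest EV library for 29 of the 35, against a background of 35.0%, and EV replicate 3 was the lowest for 26, with the background also at 35.0%. In gtr-1 RNAi, replicate 2 was the highest for 18 of 35. Over all genes it was the highest together with EV replicate 1, 2 or 3 within EV for 15.2%, 9.28% and 9.56% respectively. Replicate 2 was highest in both groups for 14 genes, of which 13 were among the 21 nlp, cnc and fip genes, with a background of 9.28%. The order of the EV libraries was not particular to the peptide genes, but not every list had it. EV replicate 2 was the highest and EV replicate 3 the lowest EV library for 8 of 8 body wall muscle markers and for 9 of 11 pharynx markers each, and of the 8 intestine markers 5 were highest in EV replicate 2 and 7 lowest in EV replicate 3. The epidermis markers did not have this order, with EV replicate 2 highest for 2 of 14 and EV replicate 3 lowest for 5. EV replicate 2 was highest for 0 of 8 germline and oocyte markers, 0 of 5 osmotic response genes and 3 of 18 intestinal immune effectors. In the same 3 lists EV replicate 3 was lowest for 3, 4 and 12 genes. These are descriptions with no test, since the genes share the same 6 libraries and many are neighbours. The labels name no batch or date for the replicates.

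**Figure D4:**
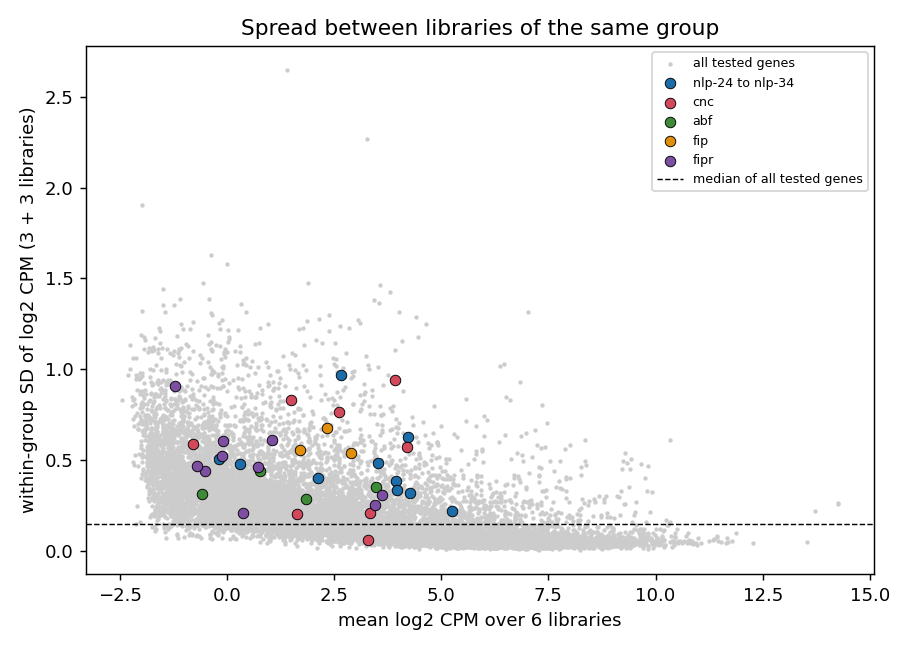
Within-group SD of log2 CPM (3 + 3 libraries) against mean log2 CPM for all 14683 tested genes (grey) and the 35 peptide genes (coloured by family). The peptide genes lie above the dashed median line of all genes, except cnc-3.

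The genes that act upstream were examined in lists taken from what is known of each route. The lists were not divided into genes that promote and genes that restrain a route. A shared sign within a list therefore does not measure the activity of the route. Receptor and G protein signalling, the p38 cascade, the STAT-like and other nuclear regulators and the TGF-beta route together had every tested gene below 0 except atf-7, a transcription factor gene under p38 control, while 24 of the 35 peptide genes were above it. With all 6 libraries, the edgeR test called none of the list genes named from here on. Without gtr-1 RNAi replicate 3 it called 0 of the 8 receptor and G protein genes and 0 of the 6 nuclear regulators. Over all genes, 15.3% were lower at an unadjusted edgeR p under 0.05 and 12.9% higher, 19.6% were lower and 16.6% higher without overlap, and DESeq2 called 7.58% lower and 6.66% higher. All 8 receptor and G protein genes had negative edgeR log2 fold changes, with a median of -0.13. Of these genes, 2 had an unadjusted edgeR p under 0.05 (15.3% of all genes were lower by that rule), while edgeR, DESeq2 and limma-voom called none. Among them dcar-1, the receptor upstream of nlp-29, was at 27.1, 30.4 and 31.2 CPM under EV and 26.96, 23.6 and 25.6 CPM under gtr-1 RNAi, barely without overlap. Its log2 fold change was -0.22 ± 0.079 SE (edgeR adjusted p = 0.136). All 8 tested TGF-beta genes were also below 0 in edgeR, with a median of -0.095 and 2 unadjusted edgeR p under 0.05. With all 6 libraries none was called by edgeR, DESeq2 or limma-voom. Without gtr-1 RNAi replicate 3 edgeR called 1 of the 8 lower (15% of all genes). The smallest p was that of sma-10, with a log2 fold change of -0.29 ± 0.11 SE (edgeR adjusted p = 0.139). The ligand gene dbl-1 had a log2 fold change of -0.31 ± 0.12 SE (edgeR adjusted p = 0.158). Of the 6 nuclear regulators, 5 were below 0, 1 had an unadjusted edgeR p under 0.05 and none was called by edgeR, DESeq2 or limma-voom, and elt-3, a GATA factor of the epidermis, had a log2 fold change of -0.33 ± 0.12 SE (edgeR adjusted p = 0.137).

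The p38 cascade held the DESeq2 calls of these routes. All 7 genes were below 0, and 6 had an unadjusted edgeR p under 0.05 (15.3% of all genes were lower by that rule). For 6 the groups did not overlap (19.6%). Without gtr-1 RNAi replicate 3 edgeR called 3 of the 7 lower (15% of all genes). The TIR-domain adaptor gene tir-1, which activates the cascade, was at 70.5, 78.0 and 108 CPM under EV and 34.6, 29.4 and 56.9 CPM under gtr-1 RNAi. Its log2 fold change was -1.08 ± 0.31 SE (edgeR adjusted p = 0.126, DESeq2 adjusted p = 0.0242). The kinase gene nsy-1, which follows it, was at 94.5, 91.8 and 97.5 CPM under EV and 71.0, 69.3 and 82.9 CPM under gtr-1 RNAi, with a log2 fold change of -0.35 ± 0.070 SE (edgeR adjusted p = 0.112, DESeq2 adjusted p = 0.0015). These were the 2 DESeq2 calls in the list, kept in 2 of the 6 fits without 1 library for tir-1 and in 5 for nsy-1. Both genes overlap an exon on the opposite strand, and nsy-1 also overlaps one on the same strand. Other named list genes overlap an exon on either strand, among them sek-1, dbl-1, dpy-10, osm-11, gpdh-1, hmit-1.2, hmit-1.3, clec-60, clec-85 and sqt-3. The next kinase gene, sek-1, had a log2 fold change of -0.15 ± 0.044 SE (edgeR adjusted p = 0.118).

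Loss of the furrow collagens or of negative regulators is known to raise nlp-29. In this list 9 of the 10 tested genes were below 0, with a median of -0.85. For 7 the groups did not overlap, all lower under gtr-1 RNAi (19.6% of all genes). Without gtr-1 RNAi replicate 3 edgeR called 6 of the 10 lower (15% of all genes). DESeq2 called osm-8 and ptr-23 lower (7.58% of all genes) and osm-11 higher (6.66%). The patched-related gene ptr-23 is known for the opposite role, as its loss suppresses the osm-8 mutant, and osm-11 encodes a secreted Notch co-ligand. The collagen gene dpy-10 was at 10.7, 13.6 and 14.6 CPM under EV and 4.07, 3.21 and 9.33 CPM under gtr-1 RNAi, with a log2 fold change of -1.23 ± 0.42 SE (edgeR adjusted p = 0.139, DESeq2 adjusted p = 0.0652). The mucin-like gene osm-8 was at 1.35, 2.58 and 1.87 CPM under EV and 0.14, 0.10 and 0.98 CPM under gtr-1 RNAi, a log2 fold change of -2.21 ± 0.76 SE (edgeR adjusted p = 0.137, DESeq2 adjusted p = 0.0146), and DESeq2 kept that call in 1 of the 6 fits without 1 library. For both genes gtr-1 RNAi replicate 3 was the nearest to EV. Without it the log2 fold change was -1.84 for dpy-10 and -3.98 for osm-8.

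Genes of the osmotic response are known to be raised in osm-8 mutants along with the peptide genes. The glycerol phosphate dehydrogenase gene gpdh-1 was at 3.88, 2.08 and 1.43 CPM under EV and 10.2, 13.1 and 5.63 CPM under gtr-1 RNAi. No library overlapped, and the log2 fold change was 1.97 ± 0.47 SE (edgeR adjusted p = 0.112, DESeq2 adjusted p = 1.4e-05). DESeq2 kept that call in 6 of the 6 fits without 1 library. DESeq2 called gpdh-1 and the inositol transporter gene hmit-1.1 higher among the 5 genes (6.66% of all genes). The hmit-1.1 call was kept in 2 of the 6 fits without 1 library. Without gtr-1 RNAi replicate 3 edgeR called 2 of the 5 higher (8.77% of all genes). For hmit-1.2 the groups did not overlap either. The list was not uniform, with log2 fold changes of 0.036 ± 0.053 SE for gpdh-2 and -0.13 ± 0.086 SE for hmit-1.3. Of the 18 intestinal immune effectors, DESeq2 called 6 higher (6.66% of all genes) and 2 lower (7.58%). Without gtr-1 RNAi replicate 3 edgeR called 6 of the 18 higher (8.77% of all genes) and 2 lower (15%). The lectin gene clec-67 had a log2 fold change of 1.43 ± 0.29 SE (edgeR adjusted p = 0.112, DESeq2 adjusted p = 1.3e-06). For clec-85 it was 0.93 ± 0.22 SE (edgeR adjusted p = 0.112), and for the lysozyme gene lys-2 it was 1.25 ± 0.31 SE (edgeR adjusted p = 0.118). DESeq2 kept these calls in 6, 3 and 2 of the 6 fits without 1 library, respectively. The lower DESeq2 calls were clec-60, with a log2 fold change of -1.49 ± 0.42 SE (edgeR adjusted p = 0.118), and irg-5, with -1.09 ± 0.46 SE (edgeR adjusted p = 0.183). They were kept in 4 and 2 of the 6 fits without 1 library.

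**Figure D5:**
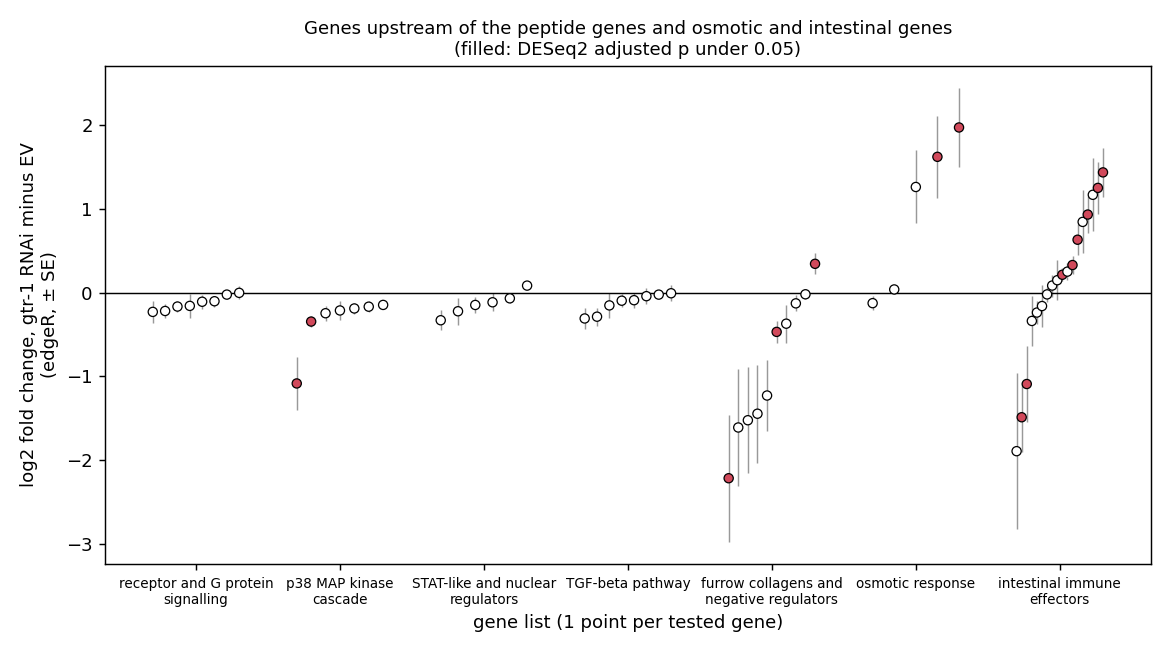
Log2 fold change of gtr-1 RNAi minus EV (edgeR, bars are ± SE, 3 libraries per group), 1 point per tested gene, for the lists of genes upstream of the peptide genes, osmotic response genes and intestinal immune effectors. Filled points have a DESeq2 adjusted p under 0.05, and the p38 cascade lies wholly below 0.

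Marker genes of the cell types in the pool were compared in the same way. The summed level of the 15 epidermis markers was 895, 989 and 968 CPM under EV and 871, 783 and 864 CPM under gtr-1 RNAi, all lower than EV. That direction rested on the collagen gene sqt-3, and without it, a choice made after its values were seen, the sums were 719, 732 and 693 CPM under EV and 823, 757 and 715 CPM under gtr-1 RNAi, where the groups overlapped. Of the 14 tested markers 7 were above 0 in log2 fold change and 7 below. Among them DESeq2 called 2 higher, nhr-23 and mup-4, and 2 lower, elt-1, a GATA factor of the epidermis, and che-14. Without gtr-1 RNAi replicate 3 edgeR called 3 of the 14 higher and 5 lower, against 8.77% and 15% of all genes. The background for the DESeq2 calls in these marker lists was 6.66% higher and 7.58% lower over all genes. The summed level of the 8 intestine markers found was 1553, 1775 and 1372 CPM under EV and 2000, 2070 and 1659 CPM under gtr-1 RNAi, with gtr-1 RNAi replicate 3 below EV replicate 2, and DESeq2 called 3 of them higher, among them the intestinal actin gene act-5. DESeq2 called 0 of 8 body wall muscle markers, of which 1 had an unadjusted edgeR p under 0.05, 1 of 9 neuron markers, unc-13, lower, and 1 of 8 germline and oocyte markers, oma-2, higher, while edgeR called none of these. Of the 8 germline and oocyte markers 7 were above 0, with a median log2 fold change of 0.13. An unadjusted edgeR p under 0.05 was found for 5 of them, all higher (12.9% of all genes), and 3 were higher without overlap (16.6%). Without gtr-1 RNAi replicate 3 edgeR called 5 of the 8 higher (8.77% of all genes). In the same fit it called 2 of 8 intestine markers higher. It also called 1 of 8 body wall muscle markers and 1 of 9 neuron markers lower (15% of all genes). No marker was at 0 in all libraries. Their part in the values of the peptide genes was not tested.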

How the data were processed

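Per the labels' protocols, stranded mRNA libraries were made from pools of whole worms. The submitters' processing notes name STAR, HTSeq and the build WBcel235; the sources used here give no versions, annotation or strand setting. The authors' deposited table gives whole-number read counts per gene, which were tested. It also gives normalized values, a signal that the authors made and that equals the counts divided by 1 factor per library for 17746 genes; these were not tested. The table has 46926 rows, 22407 with counts.

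Counts of the 6 libraries were fitted in edgeR 4.0.16 (R 4.3.3) with filterByExpr (14683 genes kept), TMM scaling and the robust quasi-likelihood F test, Benjamini-Hochberg adjusted, threshold 0.05, with no covariate. SE is the log2 fold change divided by the square root of F. Log2 CPM used a prior count of 2. DESeq2 1.42.0 and limma 3.58.1 were alternatives, with other scalings and filters, each library left out, and the replicate number as a block; an adjusted p that DESeq2 leaves empty counts as not called. Named genes were the 3 most abundant and the 3 with the smallest p per family, and every DESeq2 call among the members. Up to 3 genes per list with the smallest p were also named. Beyond this, nlp-31, nlp-34, cnc-7, rack-1, egl-8, sma-6, daf-4, osm-11, gpdh-2, hmit-1.2, hmit-1.3, clec-60, irg-5, mup-4, sqt-3, phat-3 and marg-1 were named after their values were seen. So were the extremes of spread. The members, gene lists and tests were chosen with earlier results of these data known. Coordinates and exon lengths are from the Ensembl annotation of WBcel235. The same replicate numbers gave correlations of 0.24, -0.11 and 0.20 between groups and were not taken as pairs.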

Additional observations from a re-analysis of the deposited data

How the results depend on the processing

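The 0 calls of the edgeR test, over all genes, the peptide genes and the pathway and marker genes, depended on the tool and on 1 library. DESeq2 called 853 genes higher and 971 lower, with 3 and 1 peptide genes and 15 and 9 pathway and marker genes. limma-voom with quality weights called 2359 and 3178 genes, 8 and 7 peptide genes, and 23 and 39 pathway and marker genes. Under a replicate block, edgeR called 467 and 492 genes, 4 and 1 peptide genes, and 10 and 8 pathway and marker genes, and DESeq2 736 and 935 genes, 8 and 1 peptide genes, and 17 and 16 pathway and marker genes. The replicate numbers do not pair the samples. Leaving out gtr-1 RNAi replicate 3, edgeR called 1308 genes higher and 2236 lower, with 2 and 3 peptide genes and 18 and 23 pathway and marker genes, and 0 without any other library. Over all fits without 1 library in either tool, calls ran from 0 to 1555 genes higher and 0 to 2236 lower, 0 to 6 and 0 to 3 peptide genes, and 0 to 21 and 0 to 24 pathway and marker genes. The nlp median ran from -0.044 to 0.54 in those fits. Quality weights gave a median of -0.027 for cnc and -0.17 for fip, and no filter on low counts gave -0.43 for fipr, where more fipr genes enter. Of the 21 peptide genes named by rule, 17 kept their sign in every setting. Quality weights turned the log2 fold change of cnc-2 to -0.054, of abf-6 to -0.12, of fip-5 to -0.31 and of fip-6 to -0.17, and scaling by library size alone turned abf-6 to -0.028. Without 1 library, abf-6 ran from -0.14 to 0.16, fip-5 from -0.19 to 0.78 and fip-6 from -0.026 to 0.77. The cause of these changes was not tested. DESeq2 size factors in edgeR, a filter of 10 counts in 3 libraries, no robust estimation, leaving out the 10 most abundant genes, and limma-voom without weights left the count of calls at 0. Genes with few counts limit the comparison: 29 of the 64 were not tested.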
